A study of Mus musculus with 4 samples.

Results

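The AP-1 transcription factor genes were examined in RNA-Seq of large intestinal ILC2s treated with vehicle or with deoxycholic acid (DCA), a secondary bile acid made by gut bacteria. The set holds 10 genes chosen by name, Fos, Fosb, Fosl1, Fosl2, Jun, Junb, Jund, Batf, Batf3 and Maff, among the 27179 rows of the deposited count table. ILC2s are tissue lymphocytes that lack antigen receptors and secrete type 2 cytokines. They were sorted from WT C57BL/6 mice and kept for 5 days in medium before culture with or without 100 μM DCA. The medium held the growth cytokines IL-2 and IL-7 and the alarmins IL-25 and IL-33, each at 10 ng/mL. Every library thus comes from cells already stimulated by these cytokines. Vehicle here names the libraries labelled Control, which the RNA-Seq methods of the paper describe only as without DCA. The time with DCA is 16 hours in the deposited design text and 24 hours in the paper's methods. The methods give mice of 6 to 8 weeks in their section on animals and of 6 to 14 weeks in their study design. There were 2 vehicle-treated and 2 DCA-treated libraries, and no source used here says whether they came from separate animals or cultures, so the p-values below measure only the spread between these libraries, which may be technical.

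AP-1 is a dimer of basic leucine zipper (bZIP) proteins. Fos proteins cannot pair with each other and bind DNA with a Jun partner, whereas Jun proteins also pair among themselves. The dimers bind the 7-base element TGANTCA or the 8-base cyclic AMP response element TGACGTCA. BATF proteins lack a transactivation domain, pair with Jun proteins and, together with IRF4 or IRF8, bind composite sites in lymphocytes. Small Maf proteins such as MAFF also lack a transactivation domain and pair mainly with CNC family partners. Fos, Fosb, Jun and Junb are immediate early genes, transcribed within minutes of a signal through MAP kinases, the serum response factor SRF and CREB, and their mRNAs are short-lived.

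The libraries differed in depth. The counts summed to between 26564059 and 35838342 in 3 libraries and to 244165712 in DCA replicate 2. A limit of 3 counts was set here as the most that a 0 allows. It corresponds to between 0.082 and 0.115 CPM, the count scaled to library size, in the 3 libraries and to 0.0125 CPM in DCA replicate 2. Pearson's r of log2(CPM + 1) over genes was lowest between the vehicle libraries, at 0.873, and was 0.932 between the DCA libraries. The 11 ILC2 markers summed to between 10048 and 10542 CPM in every library, led by Icos, Id2 and Il2ra, whereas Thy1 was near 0 in 3 of 4 libraries. This sum hid opposite shifts. At an unadjusted p under 0.05 (edgeR), 2 of the 11 markers were lower with DCA, against 1.73% of all 11184 genes tested. At that p 1 marker was higher, against 2.54%, and 0 markers passed an adjusted p of 0.05. From vehicle to DCA, the sort marker Klrg1 fell from 688 and 678 to 463 and 356 CPM (unadjusted p 0.0154). Il1rl1 fell from 832 and 876 to 598 and 533 CPM (0.0229). Il2ra rose from 1074 and 1230 to 1613 and 1584 CPM (0.0459). Of the other cell types, the 7 T cell markers summed to between 11.2 and 26.7 CPM, most of it Cd3g, with Cd4 and Cd8a at 0 counts in all libraries. The 5 B cell markers summed to 55.1 and 47.2 CPM with vehicle and to 37.7 and 44.5 CPM with DCA, nearly all of it Cd79b, with Pax5 at 0. The 7 epithelial markers, mostly Epcam and Krt18, summed to between 7.73 and 13.5 CPM, and the 5 ILC3 markers to at most 1.48 CPM. The 6 mast cell and basophil markers summed to between 0.349 and 4.70 CPM, mostly Mcpt8 except in DCA replicate 2. There Mcpt8 was at 0 counts, and the 0.349 CPM was Cpa3. The 6 macrophage and monocyte markers summed to 24.6 and 23.97 CPM with vehicle and to 7.30 and 10.2 CPM with DCA, nearly all of it Cd68, with Csf1r and Cd14 at 0, and the part of all these cells in the AP-1 values was not tested.

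To show DNA near starts of these genes, the 120 bases before a RefSeq start site are printed (GRCm38.p6). They are given for the genes in whose RefSeq promoter windows the letters TGACG, TGACGTCA or TGACATCA were found. The windows run from 250 bases before to 50 bases after a start. They number 11 and cover 9 of the 10 genes, Fosl1 being the gene without an entry. RefSeq starts can differ from the GENCODE gene positions given below. The Jund window ends at 70697788, before the GENCODE start of Jund at 70698949. The windows of Fosl2 and Batf3, the printed Maff stretch and the last printed bases of Batf and Fosb lie inside the GENCODE genes. Both strands were searched. The 5 letters TGACG, the core of the cyclic AMP response element, lay in 6 of the 11 windows, those of 5 genes, against 20.8% of all 32851 windows. Capitals mark these letters, and each sequence runs 5′ to 3′ on the gene's own strand. The first 4 carry TGACG alone and not the full 8-base element, and they include the immediate early genes Fos, Fosb and Junb as well as Batf.
Fos, chr12:85473770-85473889, plus strand: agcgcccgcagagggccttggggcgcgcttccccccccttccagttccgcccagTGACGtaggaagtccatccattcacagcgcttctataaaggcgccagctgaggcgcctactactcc
Fosb, chr7:19310046-19310165, minus strand: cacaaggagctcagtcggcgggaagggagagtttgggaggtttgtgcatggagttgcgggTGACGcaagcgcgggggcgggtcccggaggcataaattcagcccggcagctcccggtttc
Junb, chr8:84978749-84978868, minus strand: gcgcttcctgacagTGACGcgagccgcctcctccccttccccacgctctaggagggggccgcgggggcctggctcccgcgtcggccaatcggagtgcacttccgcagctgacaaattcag
Batf, chr12:85686600-85686719, plus strand: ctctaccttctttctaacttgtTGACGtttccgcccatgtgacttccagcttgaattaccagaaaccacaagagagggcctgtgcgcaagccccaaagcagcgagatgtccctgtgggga
The remaining sequences carry the 8-base forms, TGACATCA in Jun, known from earlier work as a site bound by Jun dimers, and TGACGTCA in Maff.
Jun, chr4:95052223-95052342, minus strand: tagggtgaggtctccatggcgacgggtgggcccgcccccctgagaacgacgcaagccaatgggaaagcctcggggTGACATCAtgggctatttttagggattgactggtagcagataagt
Maff, chr15:79347400-79347519, plus strand: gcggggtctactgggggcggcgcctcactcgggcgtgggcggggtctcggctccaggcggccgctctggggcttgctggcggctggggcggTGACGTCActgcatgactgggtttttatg

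Counted from the start site, the printed TGACG of Fos spans bases -66 to -62, that of Fosb -60 to -56, that of Junb -106 to -102 and that of Batf -98 to -94. A further TGACG of Fos lies at -129 to -125, outside the printed stretch. TGACATCA of Jun spans -45 to -38 and TGACGTCA of Maff -29 to -22, the latter in the second of 3 Maff windows. TGACATCA was found in 2 of the 11 windows, that of Jun and the third of Maff, against 3.62% of all windows, and TGACGTCA in 1, against 1.79%; TGACGTCA contains TGACG on both strands. The 7-base element TGANTCA, held by 7.81% of all windows, and the CArG box bound by SRF, held by 1.63%, were in none of the 11 windows, which says only that these letters are not in these stretches. The RNA-Seq measured transcripts and not binding, so no value below speaks of a factor at these stretches.

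No AP-1 gene passed the test. Of the 10 genes, 8 reached the mean of 1 CPM asked for testing, and Fosb and Batf3 did not. At an adjusted p under 0.05 (edgeR, adjusted over all genes tested) 0 of the 8 were called, and 0 of all 11184 genes tested, or 0.0%. When every gene with a count was fitted, edgeR called 0.203% of genes, and DESeq2 called 1.96%, again with 0 of the AP-1 genes. At an unadjusted p under 0.05, 1 of the 8, Fos, was reached, against 478 genes or 4.27% of all. The adjusted p from edgeR was 0.999 for each of the 8 genes. Both DCA libraries lay below both vehicle libraries for Fos and Batf, against 14.7% of all genes tested, and above them for Fosl1 and Jund, against 18.6%. Fosl1 reached the mean of 1 CPM only through its DCA libraries, and Fosb, lower in both DCA libraries, did not reach it, so these counts depend on the filter. Over all 10 genes, 3 were lower and 2 higher with no overlap, and nothing is read from this balance. The median log2 fold change, DCA over vehicle, was -0.13 over the 8 genes and 0.01 over all genes tested.

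**Figure D1:**
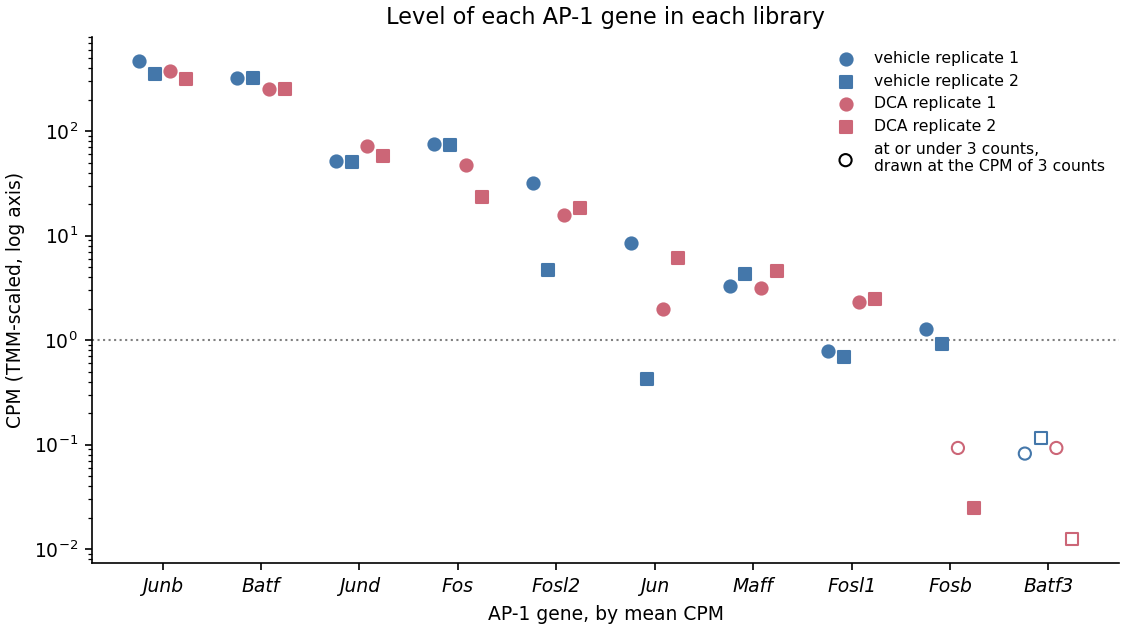
Level of each of the 10 AP-1 genes in each library, in CPM on a log axis, with genes ordered by their mean; blue marks are vehicle libraries, red marks DCA libraries, circles replicate 1 and squares replicate 2, and open marks are at or under 3 counts and drawn at the CPM of 3 counts. Fos is at 76.0 and 73.9 CPM with vehicle and at 47.7 and 23.4 CPM with DCA, Batf libraries coincide within each treatment, and Fosl2 and Jun are far apart within the vehicle pair.

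Fos (Entrez 14281, chr12:85473890-85477273, plus strand, 4 exons; GRCm38 as are all positions below) encodes c-Fos, the first described Fos protein. With vehicle its level was 76.0 and 73.9 CPM, and with DCA it was 47.7 and 23.4 CPM. The vehicle libraries were within 1.03-fold of each other, both above the DCA libraries, which were 2.04-fold apart. The mean was 75.0 ± 1.47 CPM with vehicle and 35.5 ± 17.2 CPM with DCA (SD, n = 2 each), so that the DCA mean was 47.4% of the vehicle mean. The log2 fold change was -1.08 ± 0.50 (SE), with an edgeR unadjusted p of 0.0407 and, adjusted over all genes, of 0.999. Of all genes tested, 7.55% had a fold change as low or lower. The exact permutation test over the 4 libraries gave 0.333, two-sided, which is the smallest p that 2 against 2 can reach. In RNA from whole cultures, fewer cells transcribing Fos and less Fos RNA per cell cannot be told apart.

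The size of the Fos difference depended on which DCA library was counted. Leaving out DCA replicate 2, the deepest library, gave a log2 fold change of -0.65 (edgeR unadjusted p 0.214), against -1.68 when DCA replicate 1 was left out (unadjusted p 0.0181). With DCA replicate 2 thinned to 31501544 counts, near the mean of the others, it was -1.06 with an unadjusted p of 0.0403. Leaving out vehicle replicate 1 or 2 gave -1.09 and -1.10, with unadjusted p of 0.0515 and 0.0509. In each fit that left out a library, 1 group has a single library. That library is assumed to vary like the pair of the other group, since the spread between replicates comes from that pair alone.

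Fosb (14282, chr7:19302696-19310051, minus strand) encodes FosB, which shares the strong transactivation of c-Fos, and was among the least expressed members. It had 47 and 24 counts in the vehicle libraries, or 1.28 and 0.916 CPM. It had 0 counts in DCA replicate 1 and 6 in DCA replicate 2, or 0.0249 CPM with a Poisson 95% interval of 0.00915 to 0.0543 CPM. Fosb was thus close to the limit of detection in the DCA pair, although DCA replicate 2 was sequenced far more deeply than any other library. The mean of the vehicle libraries was 11.9-fold higher than 0.0928 CPM, the limit set for the 0 in DCA replicate 1. It was 44.1-fold higher than DCA replicate 2 (20.3- to 120-fold by the interval of its 6 counts). That limit was set and not computed at the level of the interval. Intervals and limits cover only the counting error of the DCA libraries, and the vehicle mean, from 47 and 24 counts, was taken as exact. The mean of 0.556 CPM kept Fosb out of the test. When all genes with a count were fitted, its unadjusted p was 0.167 in edgeR (adjusted 0.954) and 0.0184 in DESeq2 (adjusted 0.319), and of those genes 10.9% had both DCA libraries below both vehicle libraries.

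Fosl1 (14283, chr19:5447547-5455946, plus strand) encodes FRA-1, a Fos protein without the transactivation domains of c-Fos and FosB. It had 29 and 18 counts with vehicle, or 0.792 and 0.687 CPM, and 75 and 591 counts with DCA, or 2.32 and 2.46 CPM. Within each pair the libraries were close, and the DCA mean of 2.39 ± 0.0965 CPM was 3.23 times the vehicle mean of 0.740 ± 0.0745 CPM (SD, n = 2 each). The fitted log2 fold change was 1.69, between 1.59 and 1.77 when any library was left out, but at these counts edgeR gave an unadjusted p of 0.407. Its direction in these fits was partly fixed, since only the DCA libraries brought Fosl1 past the filter. Fosl1 overlaps Ccdc85b on the opposite strand, and the strand setting of the counting is not given in the sources used here. Ccdc85b was at 25.3, 19.7, 26.7 and 19.0 CPM in vehicle replicates 1 and 2 and DCA replicates 1 and 2, with libraries that overlapped.

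Fosl2 (14284, chr5:32135801-32157842, plus strand) encodes FRA-2, the other Fos protein without those domains. Its libraries were at 31.9 and 4.73 CPM with vehicle and at 15.9 and 18.6 CPM with DCA. The vehicle libraries differed 6.73-fold and enclosed both DCA values, and 13.5% of all genes tested differed at least as much between the vehicle libraries. The log2 fold change of -0.09 (edgeR unadjusted p 0.924) was 1.84 without vehicle replicate 1 and -0.89 without vehicle replicate 2. Without DCA replicate 1 it was 0.03, so the direction of Fosl2 changed with the library left out of either pair.

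**Figure D2:**
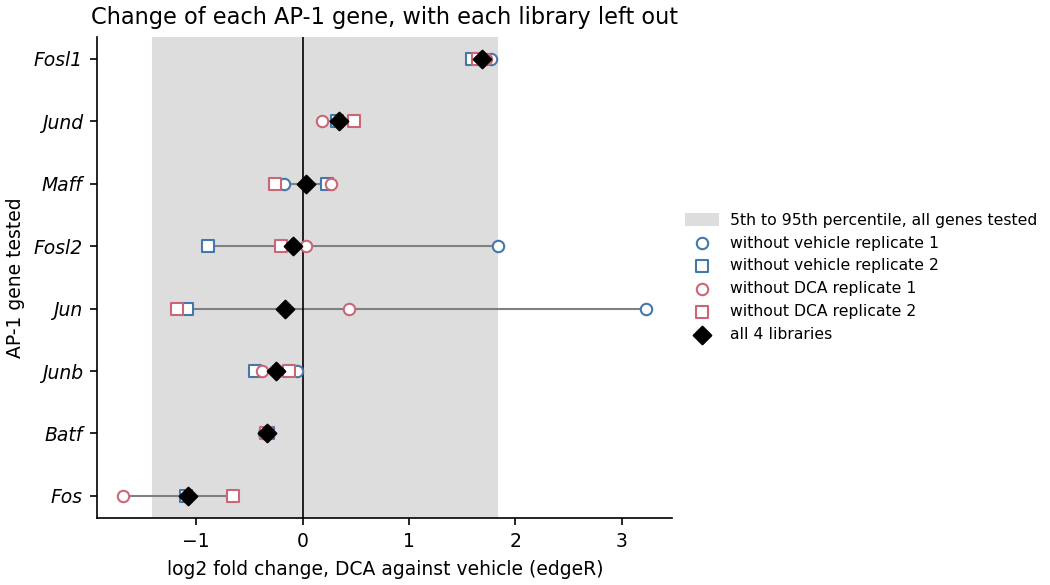
Fitted log2 fold change, DCA against vehicle, of the 8 AP-1 genes tested, with all 4 libraries (black diamonds) and with each library left out (open marks); the grey band runs from the 5th to the 95th percentile of all genes tested, -1.41 to 1.83. Fos and Batf stay below 0 and Fosl1 and Jund above 0 in every fit, whereas Jun spans -1.18 to 3.23 and Fosl2 -0.89 to 1.84. Fosl1 reached the mean of 1 CPM only through its DCA libraries, so its direction was partly fixed by the filter.

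Jun (16476, chr4:95049034-95052222, minus strand) is an intronless gene for c-Jun, the partner with which c-Fos was first found. It had 314 and 11 counts with vehicle, or 8.58 and 0.420 CPM, and 64 and 1456 counts with DCA, or 1.98 and 6.05 CPM. The vehicle libraries were 20.4-fold apart, a gap reached by 9.63% of all genes tested, and the DCA libraries 3.06-fold apart. The log2 fold change of -0.16 (edgeR unadjusted p 0.924) ran from -1.18 without DCA replicate 2 to 3.23 without vehicle replicate 1. No difference between treatments was detectable for Jun with this spread. Jun and its antisense gene Junos overlap, as do Jund and Gm11175, and both antisense genes were not analysed here.

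Junb (16477, chr8:84974484-84978718, minus strand) encodes JunB, a Jun protein with weaker transactivation than c-Jun that is prominent in cytokine-producing lymphocytes. It was at 473 and 352 CPM with vehicle and at 376 and 317 CPM with DCA, the highest count level of the set, which 3.92% of all genes tested reached. DCA replicate 1 lay between the vehicle libraries. The means were 412 ± 85.5 and 347 ± 42.1 CPM (SD, n = 2 each), with a log2 fold change of -0.25 ± 0.25 (SE; edgeR unadjusted p 0.341). That value was -0.05 without vehicle replicate 1 and -0.45 without vehicle replicate 2. Its libraries did not separate the treatments. Prdx2 overlaps Junb on the opposite strand and is itself abundant, at 315, 368, 372 and 351 CPM in the same order, with a log2 fold change of 0.08.

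Jund (16478, chr8:70698949-70700616, plus strand) encodes JunD, the Jun protein that is usually present in resting cells. It was at 52.2 and 50.7 CPM with vehicle and at 71.7 and 58.5 CPM with DCA. Both DCA libraries lay above both vehicle libraries, and the mean of 65.1 ± 9.34 CPM was 1.26 times the 51.5 ± 1.08 CPM of vehicle (SD, n = 2 each). The log2 fold change of 0.34 ± 0.15 (SE) had an edgeR unadjusted p of 0.309, and it ran from 0.18, without DCA replicate 1, to 0.48, without DCA replicate 2. The difference was of the size of the gap between the DCA libraries.

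Batf (53314, chr12:85686669-85709087, plus strand), whose product is the main IRF4 partner among AP-1 proteins in lymphocytes, was the most evenly measured member. It was at 321 and 322 CPM with vehicle and at 254 and 256 CPM with DCA, a mean level that 5.59% of all genes tested reached. Libraries of a treatment were within 1.01-fold of each other, and both DCA libraries were below both vehicle libraries. The DCA mean was 79.3% of the vehicle mean, a log2 fold change of -0.34 ± 0.0076 (SE). It stayed between -0.37 and -0.33 when any library was left out. With 2 libraries per treatment an SE can be this small by luck, so it is not a measure of how certain the change is. The unadjusted p was 0.151 in edgeR, which moderates a gene's spread toward that of all genes, and 0.067 in DESeq2 (adjusted 0.584). Of its composite-site partners, Irf4 was at 111, 101, 116 and 93.1 CPM and Irf8 at 5.06, 5.84, 11.4 and 2.66 CPM in vehicle replicates 1 and 2 and DCA replicates 1 and 2. Both partners overlapped between treatments.

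Batf3 (381319, chr1:191097847-191108945, plus strand), known for its part in the development of cross-presenting dendritic cells, had 0 counts in 3 libraries and 2 counts in DCA replicate 2, so it was not detected beyond what a 0 allows. Maff (17133, chr15:79346621-79359076, plus strand) was at 3.31 and 4.28 CPM with vehicle and at 3.15 and 4.58 CPM with DCA. The Maff libraries interleaved, and its log2 fold change of 0.03 (edgeR unadjusted p 0.982) was at most 0.26 from 0 when a library was left out.

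Fos and Batf are neighbours on chromosome 12, separated by 209.4 kb with Jdp2 as the only protein-coding gene between them. Jdp2 encodes a bZIP repressor that pairs with Jun proteins. It was at 59.2 and 31.1 CPM with vehicle and at 46.7 and 45.9 CPM with DCA, so that both DCA libraries of the gene between Fos and Batf lay inside the vehicle range (log2 fold change 0.04).

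Levels of different genes were compared as CPM per kb of exon, on the union of GENCODE exons of each gene. On this scale Batf was the highest with vehicle, at 228 and 229, followed by Junb at 206 and 153, Fos at 32.3 and 31.4 and Jund at 31.3 and 30.4 CPM per kb. Each of these neighbours was separate in its libraries, although Fos and Jund nearly met. Fosl2, Maff, Jun and Fosl1 followed at between 0.132 and 3.29 CPM per kb with overlapping neighbours, then Fosb at 0.206 and 0.147, and Batf3 at 0. With DCA, Batf (180 and 182) and Junb (164 and 138) again led, and Jund (43.0 and 35.1) came before Fos (20.3 and 9.96 CPM per kb). The level of Fos per level of Jund was 1.03 in both vehicle libraries and 0.472 and 0.284 in the DCA libraries (exact permutation p 0.333). When the longest transcript gave the length, Fos averaged 35.6 and Jund 30.8 CPM per kb with vehicle, and 16.9 and 39.0 with DCA, and the order of these genes was the same.

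The transcripts of the set were thus mostly those of Batf and the Jun genes. Fos genes made up 7.17% and 7.26% of the summed CPM per kb with vehicle and 5.60% and 3.52% with DCA, a difference of -2.65 percentage points. Fos itself held 6.40% and 7.04% of the sum with vehicle and 4.92% and 2.68% with DCA. Jund held 6.20% and 6.80% with vehicle and more, 10.4% and 9.43%, with DCA. Both differences had an exact permutation p of 0.333. The Jun genes together (47.4% and 41.1% with vehicle, 50.3% and 47.0% with DCA) and Batf (45.2% and 51.3%, then 43.8% and 49.0%) overlapped between treatments. The summed level itself was 505 and 447 CPM per kb with vehicle and 412 and 372 with DCA (exact permutation p 0.333).

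**Figure D3:**
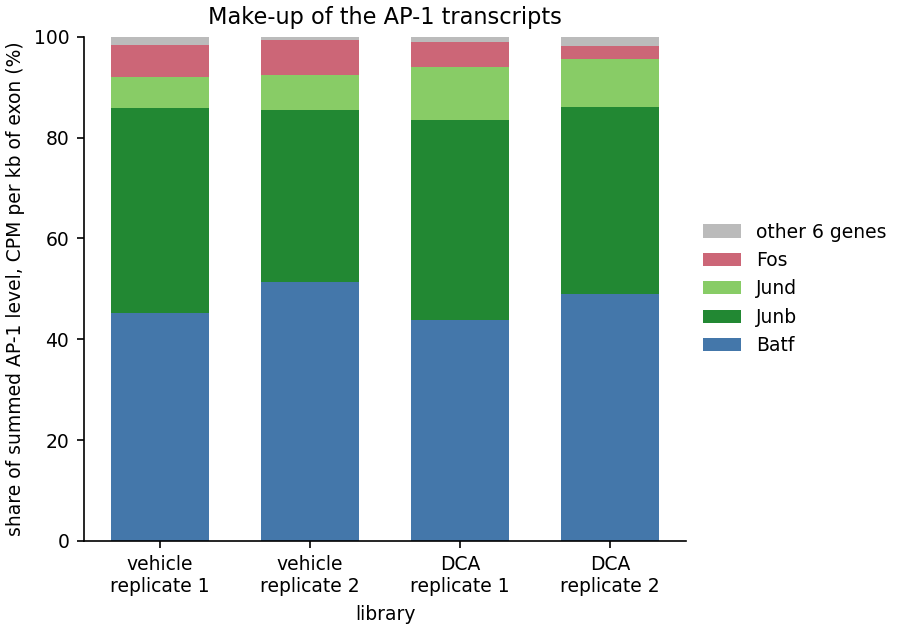
Share of each gene in the summed level of the 10 AP-1 genes, in percent of CPM per kb of exon, in each library. Batf and Junb fill most of every bar, the Fos segment is 6.40% and 7.04% with vehicle and 4.92% and 2.68% with DCA, and the Jund segment is wider in both DCA bars.

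The genes whose profile over the 4 libraries was nearest to that of Fos, by Euclidean distance of centred log2(CPM + 1), were Sptlc1 (0.12), Focad (0.14), Ube2o (0.15), Pdik1l (0.23) and Dpp7 (0.25). Sptlc1, a subunit of serine palmitoyltransferase, was at 50.2 and 52.6 CPM with vehicle and at 31.8 and 17.0 CPM with DCA. Batf ranked 1176th by this distance to Fos, Ier2 379th and Egr1 6433rd, of the genes tested. The distance is not scaled, so a change of another size in the same direction also moves a gene away. Egr1 was, like Fos, lower in both DCA libraries, but by more, and its lowest library was DCA replicate 1. Nearest to Junb were Pxdc1 (0.04), Kat2b (0.04), 2410002F23Rik (0.05), Sharpin (0.05) and Nup160 (0.06). With 4 libraries these distances describe the profiles only.

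Of genes that act with AP-1, 5 lists were examined, and 0 of their members passed an adjusted p under 0.05 in edgeR among the 11184 genes tested. Among 19 other bZIP genes, 12 were tested, and 1 had an unadjusted p under 0.05, lower with DCA, against 1.73% of all genes tested. This was Atf1, a CREB relative that binds the cyclic AMP response element, at 99.2 and 79.9 CPM with vehicle and at 53.8 and 54.1 CPM with DCA (log2 fold change -0.73, edgeR unadjusted p 0.0428). The large Maf gene Maf overlapped between treatments, and Atf3, a stress-induced bZIP gene, was at 0 counts in all libraries.

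The list of MAP kinases and SRF factors that feed into Fos and Jun had 22 members, all tested. At an unadjusted p under 0.05, 0 of them were reached in edgeR, against 4.27% of all genes tested, and the median log2 fold change was -0.07. Both DCA libraries lay above both vehicle libraries for 1 of the 22, against 18.6% of all genes tested. They lay below them for 2, against 14.7%, and nothing is read from these counts. Srf was at 23.9, 15.2, 18.1 and 20.8 CPM in vehicle replicates 1 and 2 and DCA replicates 1 and 2. Some genes of these lists were, as Jun and Fosl2, low in vehicle replicate 2. Mafk was at 41.0 CPM in vehicle replicate 1 and 1.72 in replicate 2, the SRF cofactor gene Elk1 at 16.9 and 0.305, and Mapk7, which encodes ERK5, at 49.2 and 1.07. These 3 genes were picked after their values were seen.

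The list for partners and turnover of AP-1 proteins had 11 genes, such as NFAT factors and the ubiquitin ligase genes Fbxw7, Cop1 and Itch. Of these, 0 had an unadjusted p under 0.05 in edgeR, against 4.27% of all genes tested. For Nfatc1 and Fbxw7 the DCA libraries both lay above the vehicle libraries, 2 of 11 against 18.6% of all genes tested, which is near that share. The median log2 fold change was -0.04. Among 15 AP-1 target genes known from other cells, 6 were tested and 6 were at 0 counts everywhere, among them the proteases Mmp3, Mmp9 and Mmp13. Vim, which encodes the intermediate filament vimentin, was at 1593 and 1603 CPM with vehicle and at 2628 and 1958 CPM with DCA (log2 fold change 0.52, edgeR unadjusted p 0.0494, and the only one of the 6 below 0.05, against 2.54% of all genes tested that were higher at that p). Csf2, the GM-CSF gene with AP-1 and NFAT sites, was at 129 and 57.2 CPM with vehicle and at 149 and 153 CPM with DCA (unadjusted p 0.136).

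The other immediate early genes, which like Fos respond to signals within minutes, had the lowest median of the 5 lists. Of 15 genes, 11 were tested, 3 had an unadjusted p under 0.05, all lower with DCA, against 1.73% of all genes tested, and the median log2 fold change was -0.29. The 3 include Egr2, which reached the mean of 1 CPM only through its vehicle libraries, so its direction was partly fixed by the filter and its count is no support for the tally. Egr1, a zinc finger factor induced with Fos, was at 249.2 and 175 CPM with vehicle and at 36.5 and 81.5 CPM with DCA (log2 fold change -1.85, edgeR unadjusted p 0.00499, adjusted 0.999). Egr1 was called when all genes with a count were fitted (edgeR adjusted p 3.3e-05) and by DESeq2 (adjusted p 0.0034). Ier2 was at 148 and 138 CPM with vehicle and at 86.2 and 87.6 CPM with DCA (log2 fold change -0.72, unadjusted p 0.0240). Egr2 counts were 14 and 213 with vehicle and 0 in both DCA libraries, so that the vehicle libraries themselves were far apart. Zfp36, which encodes an mRNA decay factor, was at 68.3 and 77.6 CPM with vehicle and at 49.3 and 47.0 CPM with DCA (log2 fold change -0.60, edgeR unadjusted p 0.0873). Of the 11 genes, 8 were fitted lower and 3 higher, among the latter Ier3, at 39.9 and 27.1 CPM with vehicle and at 42.5 and 45.9 CPM with DCA.

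**Figure D4:**
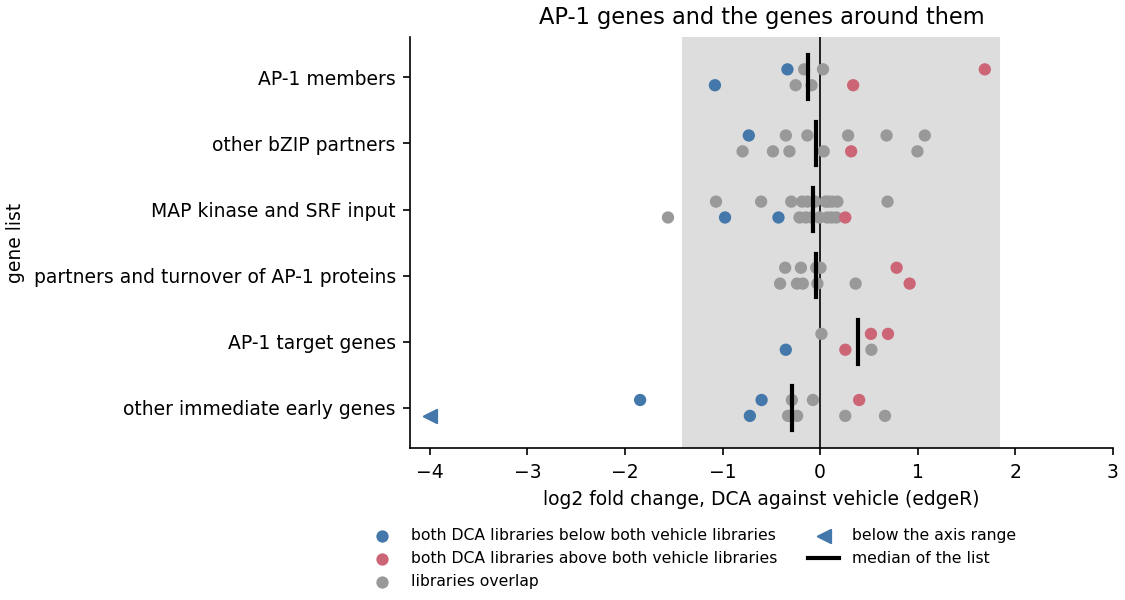
Log2 fold change, DCA against vehicle, of each tested gene in the AP-1 set and the 5 related lists; blue and red mark genes whose DCA libraries both lay below or above both vehicle libraries, grey marks overlap, the black bar is the list's median, the grey band is the 5th to 95th percentile of all genes tested, and the triangle is Egr2, below the axis. The medians run from -0.29 for the other immediate early genes to 0.39 for the AP-1 target genes.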

How the data were processed

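RNA-Seq of 2 vehicle-treated and 2 DCA-treated ILC2 libraries was used. The authors amplified full-length cDNA (SMART-Seq), trimmed the paired reads (Cutadapt 1.9) and mapped them to mm10 (HISAT2 2.2.1, versions per the submitters' processing notes). The deposited values are whole-number read counts per gene in a table that carries FPKM in its name. The counting tool, its annotation and its strand setting are not given in the sources used here. A mean CPM of 1 or more was asked of a gene, and the 11184 genes left were tested with edgeR 4.0.16 in R 4.3.3 (TMM scaling, two-sided quasi-likelihood test, p-values adjusted by Benjamini-Hochberg over all of them). CPM are TMM-scaled, and SEs come from the spread of log2(CPM + 1). DESeq2 1.42.0, which the authors used, other scalings and filters, thinning, the replicate block and leaving out each library were alternatives. The edgeR script was run on simulated data with known changes to check the code, which does not measure its power in these libraries. Exon lengths and positions are from GENCODE M21 (GRCm38), promoters from RefSeq. The AP-1 genes and all lists were chosen with earlier results of these data known. Named from the other lists were genes past an adjusted p of 0.05, up to 3 per list with the smallest unadjusted p under 0.05 and no overlap between treatments, and the 5 nearest to Fos and to Junb. Further members are given as examples and were picked with their values known.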

Additional observations from a re-analysis of the deposited data

How the results depend on the processing

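The count of AP-1 genes at an adjusted p under 0.05 was 0 under all 13 alternatives, and Fos, Junb, Jund and Batf had the same direction in every fit that tested them. Fosl1 was higher in each fit that tested it. It reached the mean of 1 CPM only through its DCA libraries, so its direction was partly fixed in fits with that filter. Over all genes tested, the count of 0 became 36 with no filter on low counts and 253 with DESeq2, and ran from 0 to 20 when 1 library was left out, 20 being the count without vehicle replicate 1. Over the other lists it became 1 with no filter (Egr1) and 2 with DESeq2 (Egr1 and Egr2). The median log2 fold change of the AP-1 genes, -0.13, was -0.089 with upper-quartile scaling, -0.25 with a mean of at least 5 CPM (5 genes tested), -0.085 with DCA replicate 2 thinned, and between -0.39 and 0.14 with 1 library left out. With the replicate number as a block it was 0.17, with Fosl2 at 0.48 and Jun at 0.83, both reversed, and no gene was called. The deviations of same-numbered libraries correlated at 0.0197, so the numbers are taken as shared labels only. Maff was -0.0027 with median-of-ratios scaling and with DESeq2. With 1 library left out, Maff ran from -0.26 to 0.26 (-0.17 without vehicle replicate 1), Fosl2 from -0.89 to 1.84 (0.030 without DCA replicate 1), and Jun from -1.18 to 3.23 (0.44 without DCA replicate 1). The cause of these shifts was not tested. Leaving out 1 library moved the difference in share of the AP-1 sum from -2.65 to between -3.69 and -1.61 percentage points for the Fos genes, from 4.40 to between 1.23 and 7.58 for the Jun genes, and from -1.83 to between -4.90 and 1.25 for the Batf genes, the last turning positive without vehicle replicate 2 (1.25) and without DCA replicate 1 (0.774). Without vehicle replicate 1 Junb was -0.05. With 2 libraries per treatment no exact permutation test can go below 0.333, and Fosl1 rests on 29 and 18 counts in the vehicle libraries.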
